A study of Mus musculus with 10 samples.

Results

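The interferon response genes were 39 of the 35275 genes in a table of RNA-sequencing values from mouse jejunal epithelium. They were chosen by gene name. By role they comprised 4 sensors of foreign RNA and DNA, 6 transcription factors and regulators, 18 antiviral effectors, 7 interferon-inducible GTPases and 4 genes of antigen processing and chemokine signaling. Levels were given as FPKM, which are fragments scaled by the length of the gene and the size of the library, and all 39 genes passed the filter of a mean of at least 0.1 FPKM that left 15729 genes for testing.

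Interferons are secreted proteins that put cells into an antiviral state. Type I and type III interferons, whose signals meet in a complex that holds STAT2 and IRF9, switch on genes through the interferon-stimulated response element (ISRE), whereas interferon gamma, made mainly by lymphocytes, acts through the gamma-activated site (GAS). In the gut, type III interferon acts mainly on epithelial cells, and interferon gamma raises antigen-processing genes and GTPases in them.

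All 10 mice were adult C57BL/6 animals labelled male that carried VillinCreERT2 and floxed MYO5B alleles, so the controls had the same genotype as the knockouts. Villin drives the tamoxifen-dependent Cre recombinase in intestinal epithelial cells, and MYO5B is a motor protein of apical membrane traffic. The 3 control mice received corn oil, and the 4 MYO5B-knockout mice received 1 dose of 2 mg tamoxifen and then vehicle (0.1% BSA in PBS, intraperitoneal) for 4 days. The 3 LPA-treated MYO5B-knockout mice received the same tamoxifen and then lysophosphatidic acid (LPA), a signaling lipid, intraperitoneally at 3 mg/kg for 4 days. No 4-day intraperitoneal treatment is given for the control mice. Tamoxifen itself, the 4 days of intraperitoneal treatment and the loss of MYO5B cannot be told apart in the comparisons with control mice.

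Each library held 10949420 to 24470409 reads on genes. The libraries of control mouse 2 and knockout mouse 3 stood apart, with 12242 and 12601 genes detected against 17309 to 18267 in the others. Mitochondrial transcripts were 17.4% and 18.1% of their reads on genes, against 1.98% to 3.5% in the others. Xist, the RNA of the inactive X chromosome, was 8.41 FPKM in knockout mouse 3 and 15.1 FPKM in LPA-treated mouse 1, whose libraries lacked reads of Y-linked genes, against their label. LPA-treated mouse 1 was also described as vehicle-treated in 1 line of its label and as LPA-treated in its title and in another line. Myo5b was 16.5 to 32.0 FPKM in control mice, 10.5 to 13.6 in knockout mice and 10.4 to 11.7 in LPA-treated mice. Epithelial markers were abundant in every group, with the 8 genes summing to 6781 to 13210 FPKM over the 10 mice. Results that rest on libraries standing apart are given below with and without them.

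RefSeq promoter windows, from 250 bases before to 50 bases after the gene start on GRCm38.p6, matched 28 of the 39 genes. The ISRE was searched as GAAANNGAAA and the GAS as TTCNNNGAA on both strands, and matches of the ISRE and GAS shared bases in 2 genes. An ISRE match lay in the windows of 17 of the 28 genes (60.7%), against 3.99% of the 27025 genes with a window and 3.44% of all 32851 windows. A GAS match lay in 8 of the 28 (28.6%), against 9.55% of genes and 8.3% of windows. By class, 12 genes had an ISRE alone, 3 a GAS alone, 5 both and 8 neither, and 8 genes had more than 1 ISRE match. A match is a run of letters and not evidence of binding. The 250 bases before the gene start are shown for 5 genes, in lower case with matches to either motif in capitals. Oas3 is shown because it was the only gene of the 39 to pass the test, Isg15 as the most abundant, Ifit3 for the largest fitted difference, Igtp because it holds both motifs and Irf1 because it holds a GAS alone.
Oas3, chr5:120777660-120777909, minus strand: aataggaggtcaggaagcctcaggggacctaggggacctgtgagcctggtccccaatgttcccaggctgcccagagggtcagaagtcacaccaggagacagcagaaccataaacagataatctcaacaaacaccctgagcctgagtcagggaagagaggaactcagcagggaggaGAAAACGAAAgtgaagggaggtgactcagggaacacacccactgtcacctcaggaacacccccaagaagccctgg
Isg15, chr4:156200819-156201068, minus strand: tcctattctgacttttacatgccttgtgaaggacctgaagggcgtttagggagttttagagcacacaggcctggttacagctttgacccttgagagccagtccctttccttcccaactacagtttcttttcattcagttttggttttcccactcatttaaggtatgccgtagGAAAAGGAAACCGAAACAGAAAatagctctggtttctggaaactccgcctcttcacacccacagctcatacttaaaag
Ifit3, chr19:34583279-34583528, plus strand: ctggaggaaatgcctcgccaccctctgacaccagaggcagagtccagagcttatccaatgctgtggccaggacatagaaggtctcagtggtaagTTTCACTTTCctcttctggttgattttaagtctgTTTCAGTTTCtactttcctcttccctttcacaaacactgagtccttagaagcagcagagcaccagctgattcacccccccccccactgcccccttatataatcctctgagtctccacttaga
Igtp, chr11:58199306-58199555, plus strand: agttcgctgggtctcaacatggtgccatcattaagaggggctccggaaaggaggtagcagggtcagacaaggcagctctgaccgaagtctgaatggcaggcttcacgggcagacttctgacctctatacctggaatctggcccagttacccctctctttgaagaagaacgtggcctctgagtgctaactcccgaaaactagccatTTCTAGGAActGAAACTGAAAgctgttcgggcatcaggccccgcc
Irf1, chr11:53769764-53770013, plus strand: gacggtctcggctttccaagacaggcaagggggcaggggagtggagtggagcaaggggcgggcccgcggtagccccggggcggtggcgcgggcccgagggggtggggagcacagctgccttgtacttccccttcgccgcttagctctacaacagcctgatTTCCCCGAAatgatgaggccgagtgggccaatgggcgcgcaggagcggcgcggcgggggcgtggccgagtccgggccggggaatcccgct

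Whether the loss of MYO5B altered the interferon response genes was asked by comparing knockout with control mice. Only 1 of the 39 genes passed limma's test at an adjusted p under 0.05, against 2.01% of all 15729 genes, and it was lower in the knockout. That gene was Oas3, an oligoadenylate synthetase, which makes the messenger that activates RNase L. The other 38 did not pass, although 36 of the 39 had a lower mean of log2(FPKM + 0.1) in knockout mice. Lower and higher means are counted on this log2 scale throughout, unless FPKM is named. The median log2 difference was -1.68, against 0.29 over all genes tested, of which 36.6% had a lower mean. At an unadjusted p under 0.05, 15 of the 39 genes were counted, against 17.6% of all genes. In 11 of the 39, every knockout mouse was below every control mouse, as in 6.2% of all genes.

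The size of the median moved with the mice included. The call of Oas3 was lost without the libraries that stood apart, as it was without any single mouse. Without control mouse 2 and knockout mouse 3, none of the 39 passed, 33 had a lower mean and the median was -1.07, against 0.21 over all genes tested. By role, the medians in that fit were -1.47 for sensors, -0.52 for regulators and -1.13 for effectors. They were -0.76 for GTPases and -1.99 for antigen processing and chemokine genes. In that fit 4 of the 7 GTPases and 5 of the 6 regulators had a lower mean. Without the 2 libraries holding Xist, none passed, 33 had a lower mean and the median was -1.18, against 0.49. In those fits 7 and 12 of the 39 had an unadjusted p under 0.05, against 25.8% and 25.7% of all genes. Leaving out 1 mouse gave medians from -2.01, without knockout mouse 6, to -1.14, without knockout mouse 5. The libraries of these mice did not stand apart. On reads recovered from FPKM, edgeR called 1 of the 39, Oas3, against 2.82% of all genes. DESeq2 called 11, all lower, against 12.5% of the genes it gave an adjusted p. The 11 were Ddx58, Dhx58, Ifit1, Ifit3, Irf7, Irf9, Oas3, Parp14, Psmb9, Rtp4 and Xaf1. By edgeR and by DESeq2, 34 of the 39 genes were lower in knockout mice. In what follows, passing refers to limma unless another tool is named.

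**Figure D1:**
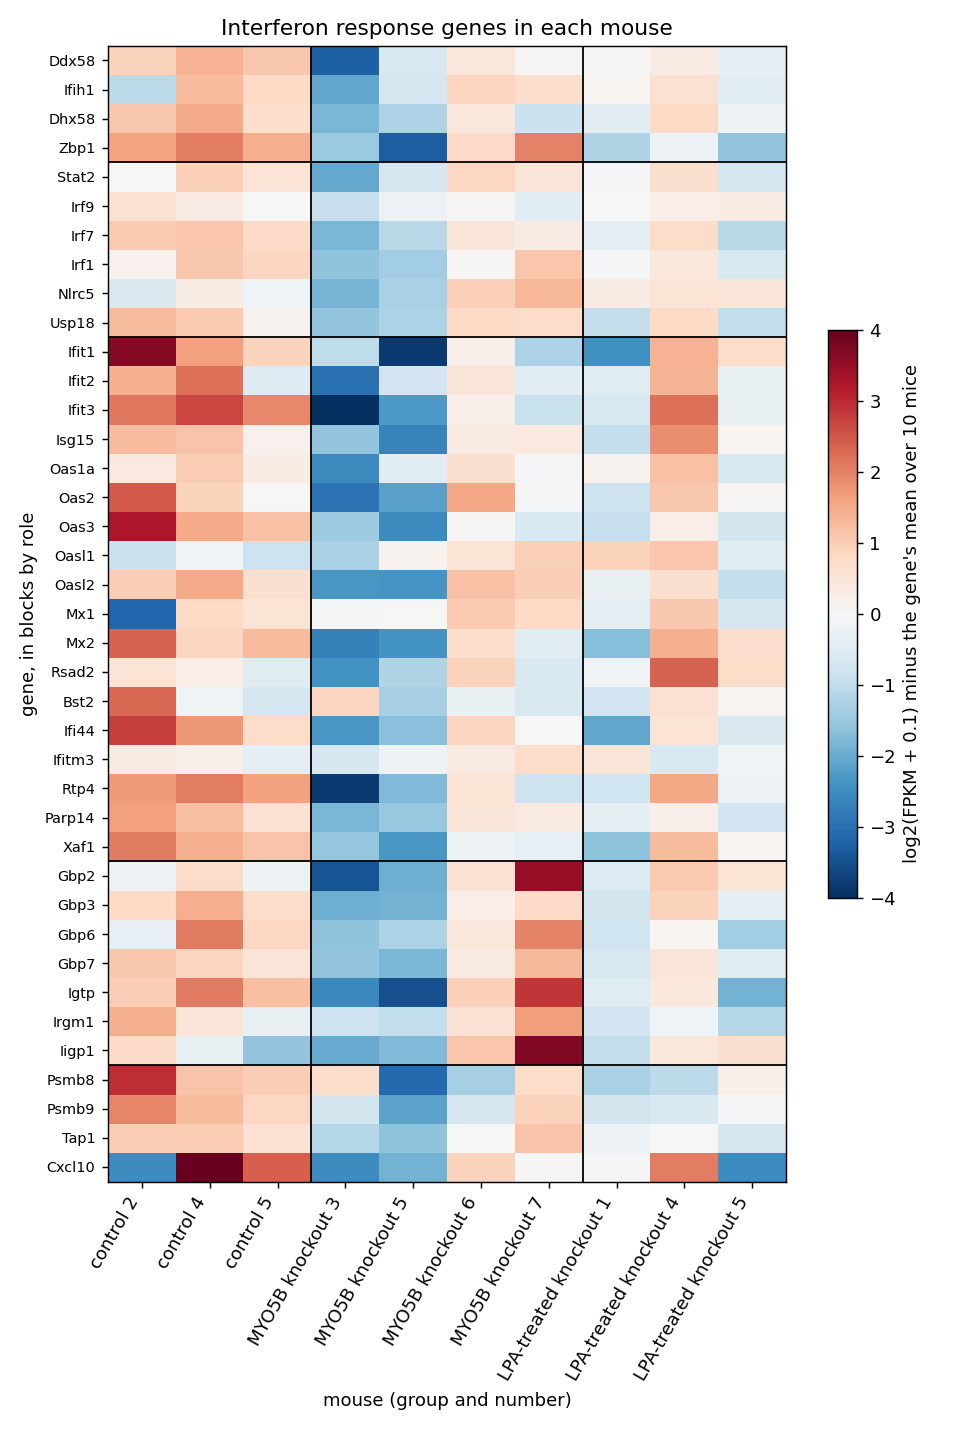
Levels of the 39 interferon response genes (rows, in blocks by role) in each of the 10 mice (columns), as log2(FPKM + 0.1) minus the gene's mean over the mice. Knockout mice 3 and 5 are below every control mouse in 36 and 34 of the 39 genes, and the GTPase block of knockout mouse 7 is above the mean, with a median of 2.00.

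Oas3 lies on the minus strand at chr5:120753098-120777661 of GRCm38. Control mice 2, 4 and 5 had 54.1, 16.3 and 12.7 FPKM of Oas3. Knockout mice 3, 5, 6 and 7 had 1.97, 0.885, 5.86 and 3.69 FPKM, and LPA-treated mice 1, 4 and 5 had 2.94, 6.83 and 3.32 FPKM. All 7 mice given tamoxifen were below every control mouse, and control mouse 2 was more than 3-fold above the other controls. The mean was 27.7 ± 22.9 FPKM (SD, n = 3) in control mice and 3.10 ± 2.17 (SD, n = 4) in knockout mice. Oas3 fell by 3.11 on the log2(FPKM + 0.1) scale in knockout mice (SE 0.68, limma adjusted p = 0.048). Its call was lost in each of the 10 fits that left out 1 mouse, with differences of -3.51 to -2.47 and adjusted p-values of 0.059 to 0.13. Without control mouse 2 and knockout mouse 3, the difference was -2.36 (adjusted p = 0.10), and without the libraries holding Xist it was -3.00 (adjusted p = 0.089). The edgeR test on recovered reads gave an adjusted p of 0.038. In LPA-treated mice the difference from control was -2.43 (limma adjusted p = 0.13) and that from untreated knockout mice was 0.68 (adjusted p = 1.0).

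Among the antiviral effectors, 16 of 18 had a lower mean in knockout than in control mice, with a median log2 difference of -1.87. The largest fitted difference of the 39 was that of Ifit3, which encodes a protein that binds viral RNA with its IFIT partners. Ifit3 was 14.2, 20.8 and 12.3 FPKM in control mice, and 0, 0.565, 3.67 and 1.68 FPKM in knockout mice 3, 5, 6 and 7, with no overlap between these groups. Its difference of -4.24 (95% interval -6.69 to -1.79) had an adjusted p of 0.077. It had no reads in knockout mouse 3, so the fitted size depends on the value of 0.1 added before taking logs. Ifit3 was 2.01, 14.8 and 2.62 FPKM in LPA-treated mice 1, 4 and 5, and only mouse 4 was within the control range. Other effectors that did not pass but did not overlap between knockout and control mice were Ifit1 (-3.51), Rtp4 (-3.25), Mx2 (-2.70), Xaf1 (-2.65) and Parp14 (-1.77). The 13 genes described in every group were fixed by a rule, and the others were named after their values were seen.

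Isg15, a ubiquitin-like modifier that is conjugated to proteins during infection, was the most abundant of the 39. It was 231.9, 215.7 and 108.3 FPKM in control mice 2, 4 and 5, and 32.3, 15.04, 123.4 and 126.7 FPKM in knockout mice 3, 5, 6 and 7. Knockout mice 6 and 7 were within the control range, whereas 3 and 5 were below it, and the difference of -1.74 (SE 0.83) did not pass the test (adjusted p = 0.31). In LPA-treated mice 1, 4 and 5 it was 50.2, 350.3 and 101.5 FPKM, so that mouse 4 was the highest of all 10 mice. Oasl1, an inhibitor of Irf7 translation, was the next most abundant. It was 58.0, 93.1 and 58.9 FPKM in control mice, 42.5, 114.8, 155.4 and 202.2 in knockout mice 3, 5, 6 and 7, and 199.4, 228.0 and 74.9 in LPA-treated mice 1, 4 and 5. Oasl1 was thus 1 of the 3 genes with a higher mean in knockout mice, by 0.70 (SE 0.55, adjusted p = 0.55), and the groups overlapped. The other 2 were Mx1 (1.06, adjusted p = 0.59), a GTPase that blocks viral replication and that had no reads in control mouse 2, and Iigp1 (0.63, adjusted p = 0.84). Ifitm3, which restricts viral entry, differed by -0.01, with a 95% interval of -0.90 to 0.87. On the FPKM scale the means of Gbp2, Nlrc5 and Ifitm3 were also higher in knockout mice. They were 3.48, 1.16 and 39.6 FPKM there, against 1.13, 0.816 and 38.2 FPKM in control mice.

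**Figure D2:**
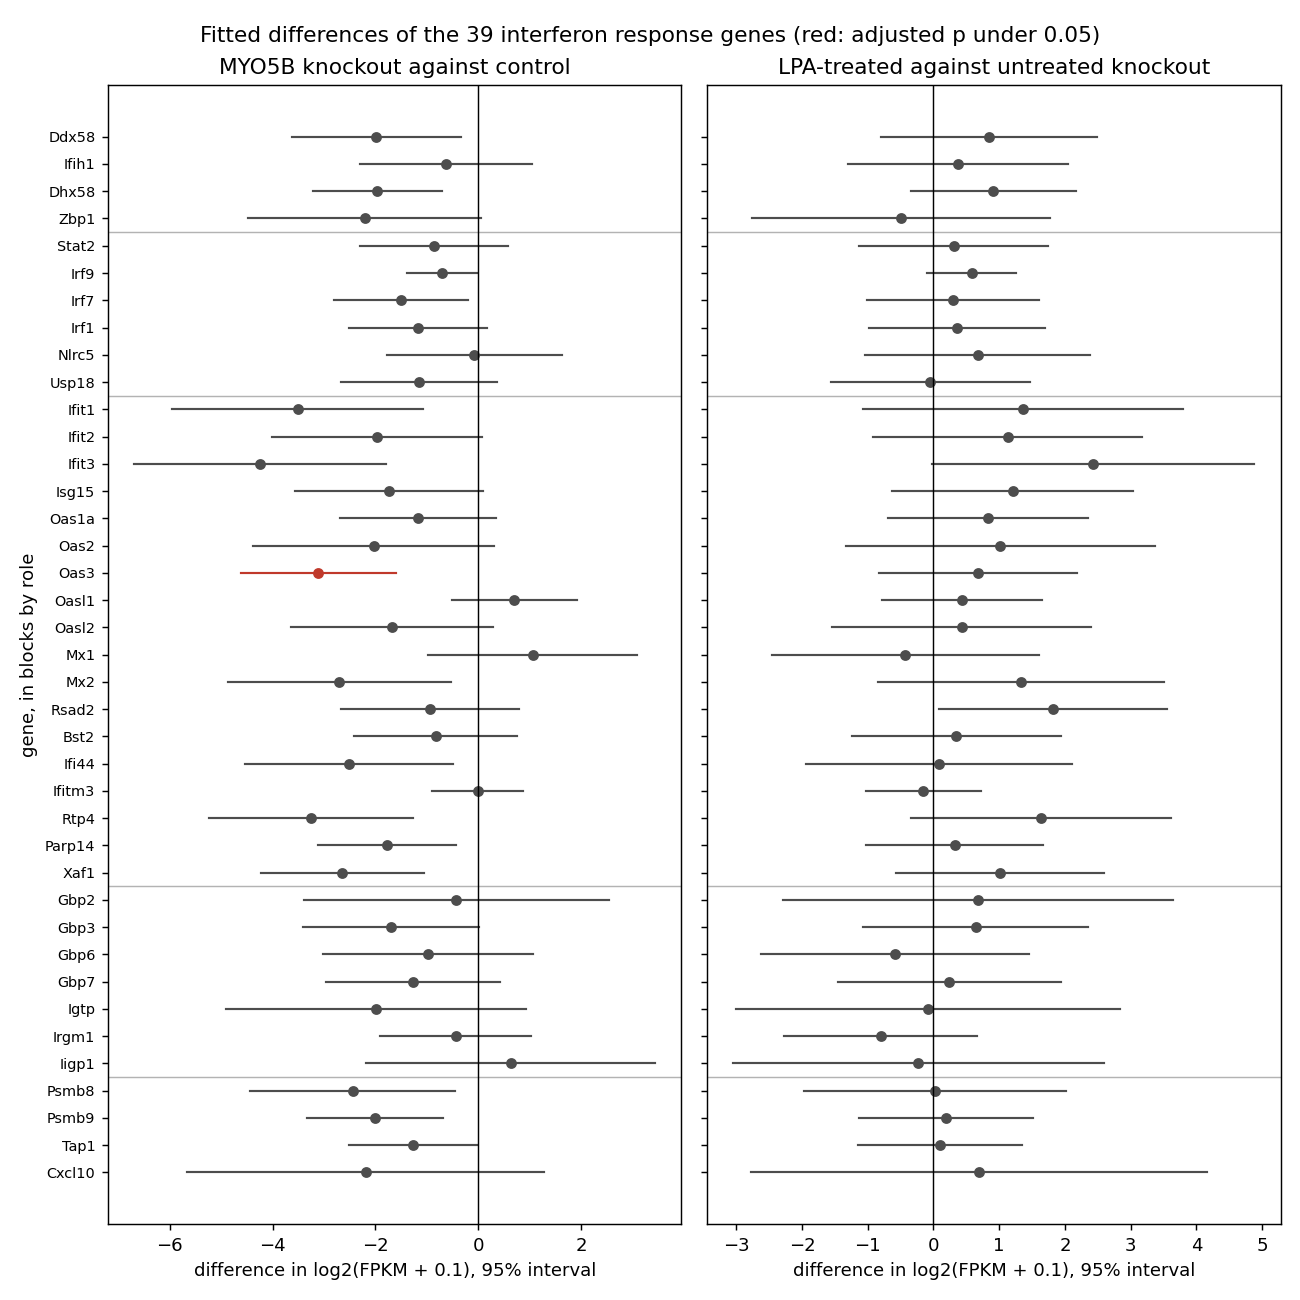
Fitted differences in log2(FPKM + 0.1) with 95% intervals for the 39 genes, knockout against control (left) and LPA-treated against untreated knockout (right). Oas3, in red, is the only gene past an adjusted p of 0.05 on the left, 36 of the 39 points there lie below 0, and none passes on the right.

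All 4 sensors had a lower mean in knockout mice, with a median of -1.97, and none passed limma's test, whereas DESeq2 called 2 of them, Ddx58 and Dhx58. Ifih1, the MDA5 sensor of double-stranded RNA, was 3.92, 19.9 and 14.3 FPKM in control mice 2, 4 and 5, and 1.87, 5.12, 15.03 and 13.5 in knockout mice 3, 5, 6 and 7. The groups overlapped and the difference was -0.63 (SE 0.76, adjusted p = 0.71). In LPA-treated mice it was 8.67, 12.7 and 5.94 FPKM. Zbp1, a sensor of Z-form nucleic acid that can trigger cell death, was 18.3, 25.6 and 16.8 FPKM in control mice and 2.12, 0.523, 10.4 and 24.1 in knockout mice 3, 5, 6 and 7. Knockout mouse 7 was within the control range and the others were below it, and the difference of -2.21 (SE 1.03) did not pass (adjusted p = 0.30). In LPA-treated mice 1, 4 and 5, Zbp1 was 2.57, 5.15 and 1.99 FPKM, below every control mouse. Ddx58, which encodes RIG-I, and Dhx58, its relative LGP2, were below every control mouse in every knockout mouse, with differences of -1.98 (adjusted p = 0.20) and -1.97 (adjusted p = 0.11).

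The 6 transcription factors and regulators had a lower mean in knockout mice, with a median of -1.001, and none passed limma's test, whereas DESeq2 called Irf7 and Irf9. Irf7, the factor that amplifies type I interferon production, was 84.4, 87.6 and 69.1 FPKM in control mice and 11.4, 19.0, 57.7 and 49.96 FPKM in knockout mice 3, 5, 6 and 7. The groups did not overlap, and the difference of -1.51 (SE 0.59) had an adjusted p of 0.22. In LPA-treated mice 1, 4 and 5, Irf7 was 32.2, 67.5 and 18.9 FPKM, also below every control mouse. Irf1, a factor induced strongly by interferon gamma, was 41.6, 78.02 and 67.1 FPKM in control mice and 11.97, 13.95, 38.04 and 78.8 in knockout mice, the last of these, mouse 7, being the highest of the 10. Its difference was -1.17 (SE 0.61, adjusted p = 0.35), and in LPA-treated mice it was 34.5, 48.7 and 23.7 FPKM. Irf9, the DNA-binding partner of STAT2, had the narrowest spread within groups. It was 16.6, 13.5 and 10.98 FPKM in control mice, 5.64, 9.04, 11.2 and 7.98 in knockout mice, and 10.9, 12.97 and 13.2 in LPA-treated mice. Its difference of -0.71 (SE 0.31) did not pass (adjusted p = 0.26), and the groups overlapped through knockout mouse 6. Reads of Irf9 may include those of Rnf31, which overlaps it on the same strand and had 61.2% as many reads. Irf7 likewise overlaps Phrf1 on the opposite strand (43.0% as many reads), and strand use in counting was not given in the sources used here. The remaining regulators, Stat2, Nlrc5 and Usp18, differed by -0.86, -0.07 and -1.15.

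**Figure D3:**
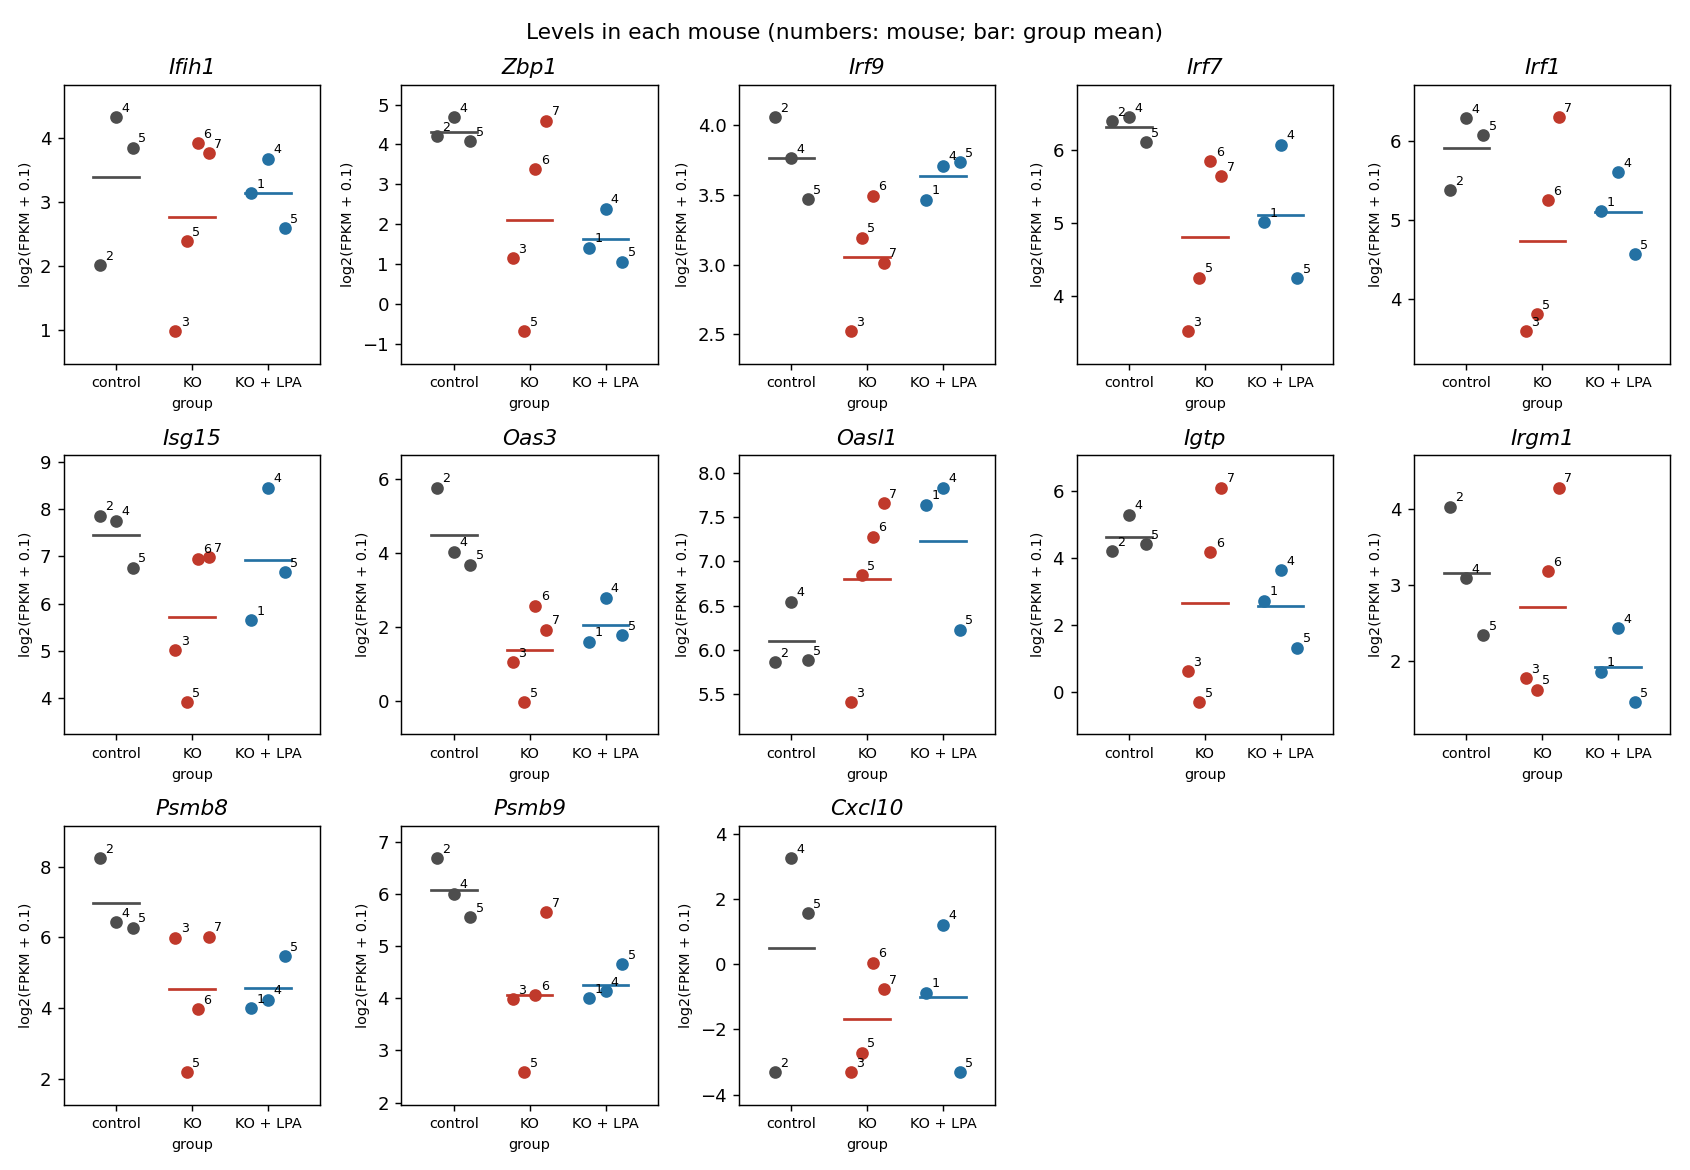
Levels of 13 genes in each mouse on the log2(FPKM + 0.1) scale, with mouse numbers beside the points and bars at group means of these log2 values. Knockout mouse 7 is below every control mouse only for Irf9, Irf7, Oas3 and Psmb8.

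The interferon-inducible GTPases, which act on vacuoles that hold intracellular pathogens, differed most among the knockout mice. Igtp was 18.3, 38.9 and 21.2 FPKM in control mice, and 1.45, 0.717, 18.0 and 68.0 FPKM in knockout mice 3, 5, 6 and 7. Thus knockout mouse 7 was above every control mouse while mice 3 and 5 were far below, and the difference of -1.98 (SE 1.32) did not pass (adjusted p = 0.47). In LPA-treated mice 1, 4 and 5, Igtp was 6.53, 12.4 and 2.41 FPKM, below every control mouse. Igtp overlaps Irgm2 on the same strand, which had 46.5% as many reads. Irgm1, a regulator of these GTPases, was 16.3, 8.41 and 4.96 FPKM in control mice, 3.31, 2.97, 8.99 and 19.4 in knockout mice, and 3.52, 5.29 and 2.64 in LPA-treated mice. Its groups overlapped and its difference was -0.44 (SE 0.66, adjusted p = 0.77). Over the 7 GTPases the median difference was -0.98, 6 had a lower mean, and none passed by limma, edgeR or DESeq2. Members of the Gbp and Irg families share sequence, and their reads may be split between copies.

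Antigen processing and chemokine genes had a lower mean in knockout mice in 4 of 4 cases, with a median of -2.10, and none passed limma's test. DESeq2 called Psmb9, as did limma without knockout mouse 7. Psmb8, a catalytic subunit of the immunoproteasome, was 302.2, 85.9 and 77.4 FPKM in control mice and 63.7, 4.44, 15.5 and 64.9 FPKM in knockout mice 3, 5, 6 and 7. The groups did not overlap, and the difference of -2.44 (SE 0.90) had an adjusted p of 0.19. In LPA-treated mice 1, 4 and 5, Psmb8 was 15.8, 18.8 and 44.3 FPKM, again below every control mouse. Psmb9, another catalytic subunit, was 102.7, 63.8 and 46.7 FPKM in control mice, 15.7, 5.87, 16.5 and 50.2 in knockout mice, and 15.9, 17.4 and 25.0 in LPA-treated mice. Its difference was -2.01 (SE 0.60, adjusted p = 0.12), and only knockout mouse 7 was within the control range. Psmb9 overlaps Tap1, the peptide transporter gene, on the opposite strand, and each had nearly as many reads as the other (95.5% and 105% as many). Cxcl10, a chemokine that attracts T cells, had the widest spread within groups and a mean of 1.65 FPKM. It had no reads in control mouse 2, knockout mouse 3 and LPA-treated mouse 5, and was 9.50 and 2.87 FPKM in control mice 4 and 5. Knockout mice 5, 6 and 7 had 0.0530, 0.939 and 0.486 FPKM, and LPA-treated mice 1 and 4 had 0.448 and 2.22 FPKM. Its difference of -2.19 had a 95% interval of -5.66 to 1.28.

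The spread among knockout mice was wide. The median within-group SD of log2 values over the 39 genes was 0.54 in control mice, 1.43 in knockout mice and 0.81 in LPA-treated mice, against 0.73, 0.74 and 0.49 over all genes tested. The SD was larger among knockout than among control mice in 36 of the 39 genes, against 50.3% of all genes. Knockout mouse 3 was the lowest of its group in 26 of the 39 genes and mouse 5 in the remaining 13, against 63.1% and 5.86% of all genes. Mouse 6 was the highest in 22 and mouse 7 in 16, against 24.7% and 15.6% of all genes. Below every control mouse were 36 genes in knockout mouse 3, 34 in mouse 5, 18 in mouse 6 and 16 in mouse 7, against 29.3%, 13.3%, 15.1% and 14.4% of all genes. Knockout mouse 7 was above every control mouse in 11 of the 39, against 38.8% of all genes. Those 11 were Irf1, Nlrc5, Oasl1, Mx1, Ifitm3, Gbp2, Gbp7, Igtp, Irgm1, Iigp1 and Tap1. Of knockout mouse 3, 9 of the 39 genes had no reads, and its library was 1 of those with few genes detected, whereas knockout mouse 5 had reads from all 39 and 18267 genes detected.

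Some markers of other cells also differed between the groups. The 12 T lymphocyte markers summed to 349.8 to 486.6 FPKM in control mice, 14.3 to 143.0 in knockout mice and 23.1 to 44.1 in LPA-treated mice, and 2 of the 12 fell in knockout mice by limma's test. Of the 6 B lymphocyte and plasma cell markers tested 2 fell, as did 1 of the 12 enterocyte markers. Within the knockout group the T lymphocyte sum was 52.2, 14.3, 59.3 and 143.0 FPKM in mice 3, 5, 6 and 7. The B lymphocyte and plasma cell sum was 54.6, 6.92, 9.365 and 15.3 FPKM in the same mice. The macrophage and dendritic cell sum was 5.68, 16.5, 12.4 and 12.9 FPKM. Relative to their means over the 10 mice, the 39 genes had medians of -1.82, -1.61, 0.50 and 0.50 there. The 7 B lymphocyte and plasma cell markers summed to 67.0 to 118.6 FPKM in control mice, 6.92 to 54.6 in knockout mice and 18.1 to 90.8 in LPA-treated mice. The macrophage and dendritic cell markers gave 9.49 to 15.8, 5.68 to 16.5 and 23.9 to 32.6 FPKM, and those of stroma and endothelium 1.49 to 6.29, 0.421 to 3.29 and 1.48 to 8.80 FPKM. Enterocyte markers summed to 31650 to 41790 FPKM in control mice, 14490 to 26820 in knockout mice and 22800 to 43710 in LPA-treated mice, and proliferation markers to 88.8 to 123.3, 205.7 to 333.1 and 153.1 to 253.4 FPKM. No marker in these lists was without reads in all mice of a group. Fewer cells of a type and less RNA per cell cannot be told apart in such bulk samples, and the part of these cells in the differences of the interferon response genes was not tested.

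**Figure D4:**
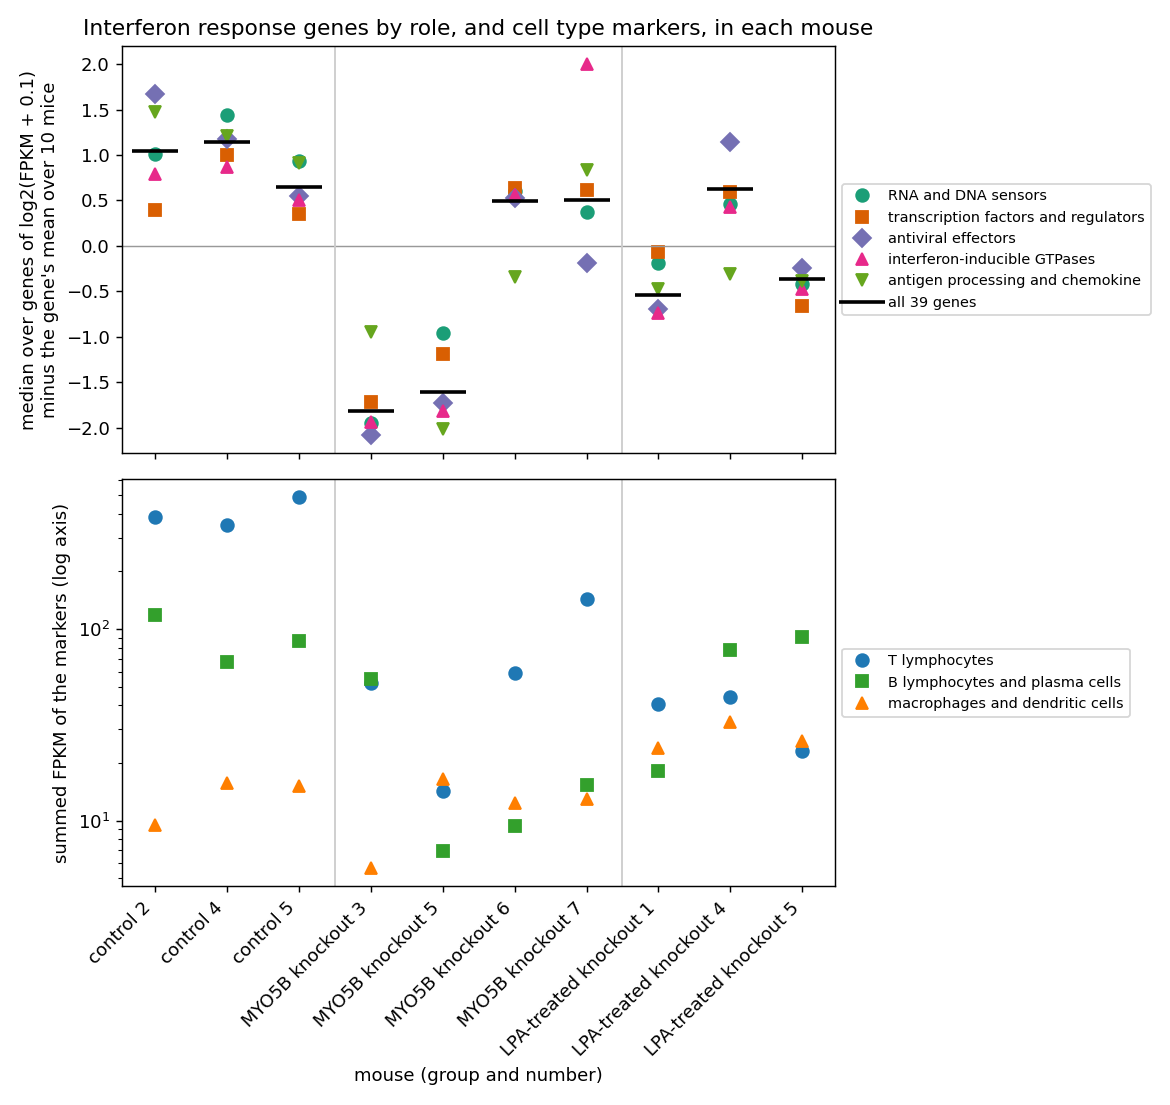
Top, the median over the genes of each role of log2(FPKM + 0.1) minus the gene's mean over 10 mice, by mouse, with a bar for all 39 genes. Bottom, the summed FPKM of markers of 3 groups of immune cells on a log axis, where T lymphocyte markers are at 349.8 or more in every control mouse and at 143.0 or less in every other mouse.

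The response to LPA was asked by comparing LPA-treated with untreated knockout mice. None of the 39 genes passed limma's test, as in 0.0% of all genes, and every adjusted p was 1.0. By unadjusted p under 0.05, 1 of the 39 was counted, against 2.92% of all genes. This gene was Rsad2, which encodes the antiviral enzyme viperin. Rsad2 was 0.632, 1.62, 7.36 and 2.51 FPKM in knockout mice 3, 5, 6 and 7 and 3.51, 20.4 and 6.45 FPKM in LPA-treated mice 1, 4 and 5, with a difference of 1.82 (95% interval 0.08 to 3.56). On recovered reads edgeR called none of the 39, as of all genes (0.0%), and DESeq2 called none, against 0.0589% of the genes it gave an adjusted p. At an unadjusted p under 0.05, edgeR counted 1 and DESeq2 2 of the 39, against 2.84% and 4.34% of all genes. The median difference was 0.43, against 0.11 over all genes, and 31 of the 39 had a higher mean in LPA-treated mice. In none of the 39 was every LPA-treated mouse above every untreated knockout mouse, which held for 3.56% of all genes. Without control mouse 2 and knockout mouse 3, the median was 0.04 and 19 of the 39 had a lower mean. Without the 2 libraries holding Xist it was 0.09, with 16 lower, and without LPA-treated mouse 1, whose label was contradictory, it was 0.63, with 6 lower. Leaving out another single mouse moved it to 0.21 without knockout mouse 5, 0.73 without mouse 6, 0.88 without mouse 7 and 0.13 without LPA-treated mouse 4. On recovered reads the median was 0.055 with edgeR and 0.076 with DESeq2, each with 16 lower.

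LPA-treated mice did not have like levels. Mouse 4 was the highest of its group in 34 of the 39 genes, against 21.9% of all genes. Mouse 1 was the lowest in 21 and mouse 5 in 17, against 24.6% and 40.8% of all genes. Antiviral effectors had a median of 1.14 in mouse 4 relative to their means over the 10 mice, and of -0.69 and -0.25 in mice 1 and 5. For the fitted differences with LPA, the 95% intervals were wide. That of Igtp ran from -3.00 to 2.83, that of Psmb8 from -1.96 to 2.02 and that of Isg15 from -0.62 to 3.04. Each interval holds 0.

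The LPA-treated mice were also compared with control mice, a comparison that shares its controls with the first. None of the 39 genes passed limma's test, against 2.32% of all genes, and 6 had an unadjusted p under 0.05, against 16.4%. The 6 were Zbp1, Oas3, Ifi44, Parp14, Psmb8 and Psmb9. The median was -1.13, against 0.41 over all genes, and 33 of the 39 had a lower mean. Every LPA-treated mouse was below every control mouse in 13 of the 39, as in 6.38% of all genes, among them Zbp1 (-2.70, adjusted p = 0.25), Psmb8 (-2.41, adjusted p = 0.24) and Psmb9 (-1.82, adjusted p = 0.18). On recovered reads edgeR called none of the 39, against 2.4% of all genes. By edgeR 9 of the 39 had an unadjusted p under 0.05, against 2457 of all 15729 genes. DESeq2 called 5, against 10.2% of the genes it gave an adjusted p, and these were Oas3, Parp14, Psmb8, Psmb9 and Zbp1. The median was -1.06 without control mouse 2 and knockout mouse 3, and -0.82 without the libraries holding Xist. It was also -0.82 without LPA-treated mouse 1.

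Interferon genes themselves gave few reads. Of 11 ligand genes searched, Ifna1, Ifna2, Ifna4, Ifna5, Ifnab and Ifnb1 had no reads in any mouse. Ifng, which encodes interferon gamma, had 0, 2 and 8 reads in control mice 2, 4 and 5, 0, 0, 1 and 1 in knockout mice 3, 5, 6 and 7, and 0, 9 and 3 in LPA-treated mice 1, 4 and 5. Ifnk had at most 7 reads in a mouse. The lambda interferon genes Ifnl2 and Ifnl3, which are near-identical in sequence, had 3 and 4 reads in LPA-treated mouse 4 and none elsewhere, and Ifne had 1 read in that mouse. Only Ifnk and Ifng passed the filter, and neither passed in any comparison by limma, edgeR or DESeq2.

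All 6 receptor genes had reads in every mouse, but Ifnar2 had only 3 in control mouse 2, 23 in knockout mouse 3 and 24 in LPA-treated mouse 5. Of the 6 tested, none passed limma's test in any comparison, and their median difference between knockout and control mice was 0.31. DESeq2 called 1 of the 6 between knockout and control mice and 2 between LPA-treated and control mice, and limma without control mouse 2 and knockout mouse 3 likewise called 1 and 2. Ifngr1, which binds interferon gamma, was 38.6, 58.0 and 50.9 FPKM in control mice and 54.9, 115.1, 81.1 and 69.9 FPKM in knockout mice, with overlap. Ifngr2, its signaling partner, was 71.7, 61.4 and 64.5 FPKM in control mice and 35.9, 25.7, 34.9 and 31.7 FPKM in knockout mice, with no overlap and a difference of -1.05 (SE 0.24, adjusted p = 0.055).

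None of the 10 genes for kinases, STATs and restraint and none of the 10 tested sensing genes passed limma's test in any comparison. Between knockout and control mice, edgeR called 0 and 1 of them and DESeq2 1 and 2, and between LPA-treated and control mice DESeq2 called 1 and 2. Their median differences between knockout and control mice were 0.05 and -0.18. Highest by mean were Socs3 (26.6 FPKM), a feedback inhibitor, and Jak2 (21.3 FPKM), a receptor-bound kinase, among the first, and Trim25 (38.3 FPKM), an activator of RIG-I, and Tbk1 (26.7 FPKM), the kinase of IRF3, among the second. In knockout mice Socs3 was 5.26, 12.1, 36.6 and 50.5 FPKM in mice 3, 5, 6 and 7, against 5.36, 38.8 and 30.0 in control mice.

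A further 42 interferon-stimulated genes that are not among the 39, listed with earlier results of these data known, were looked up. Of these genes 41 were found and 40 tested. Their median difference between knockout and control mice was -1.40, and 37 of the 40 had a lower mean. By edgeR 1 was called and by DESeq2 9. The 1 gene that passed limma's test, downward, was Tapbp, the gene of tapasin, which loads peptide onto MHC class I. Tapbp was 263.3, 172.2 and 165.8 FPKM in control mice, 40.5, 23.1, 43.4 and 80.2 in knockout mice 3, 5, 6 and 7, and 34.3, 58.1 and 43.2 in LPA-treated mice 1, 4 and 5. It fell by 2.20 in knockout mice (SE 0.40, limma adjusted p = 0.027), and by 2.15 in LPA-treated mice relative to control (SE 0.43, adjusted p = 0.032). Without control mouse 2 and knockout mouse 3, the median over the 40 genes was -1.21, with 1 of them past the threshold. The most abundant of these genes were B2m, the MHC class I light chain, and H2-K1, a heavy chain. B2m was 312.2, 2421 and 2426 FPKM in control mice and 64.9, 374.2, 813.2 and 1224 FPKM in knockout mice, with overlap through control mouse 2 (-1.63, adjusted p = 0.44). H2-K1 was 1191, 1727 and 1658 FPKM in control mice and 222.9, 497.1, 632.2 and 973.2 FPKM in knockout mice, with no overlap (-1.56, adjusted p = 0.12).

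Genes with and without promoter matches had similar directions. All 17 genes with an ISRE match had a lower mean of log2(FPKM + 0.1) in knockout mice, with a median of -1.26. So did 10 of the 11 with a window but no ISRE match, with a median of -1.68. Among the 17, Gbp2 and Ifitm3 had a higher mean FPKM in knockout mice (3.48 and 39.6) than in control mice (1.13 and 38.2). The 8 genes with a GAS match had a median of -1.22 and the 20 without one a median of -1.69. These values are descriptions, and no test was made between the classes.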

How the data were processed

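Poly(A) RNA of isolated jejunal epithelium was sequenced from 10 mice. The authors counted reads on genes and deposited FPKM, 1 column per mouse, together with read counts for single genes of 1 comparison. The submitters' processing notes name STAR 2.5, TopHat, HTSeq 0.6.1 and DESeq2 on GRCm38 (mm10); the annotation and strand setting were not given in the sources used here. FPKM times gene length was a whole multiple of 1 step in each library for 100% of values (tolerance 0.01), and all 63 deposited counts equalled the reads recovered so. Columns of the authors' own comparisons and pathway lists hold fold changes, p-values and enriched terms and were not used.

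Genes averaging 0.1 FPKM or more over the mice were tested by limma 3.58.1 (R 4.3.3) on log2(FPKM + 0.1), in 1 model of 3 groups over 10 mice, two-sided, with Benjamini-Hochberg adjustment over all 15729 genes and a threshold of 0.05. Differences are on that scale, which understates changes of low genes. Recovered reads were tested with edgeR 4.0.16 (quasi-likelihood) and DESeq2 1.42.0. Separate mice were replicates. The tests were tried on simulated data. The members and lists were chosen with earlier results of these data known. Values in every mouse are given for genes passing limma's test in any comparison, the 2 most abundant of each role, and those with the widest and narrowest spread within groups; other pathway genes are named where they passed, were the 2 most abundant of a list, or are ligands, and any further gene was picked after its values were seen. Gene positions are those of the deposited table; 27 of the 39 have identical coordinates in GENCODE M21.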

Additional observations from a re-analysis of the deposited data

Results flagged for a closer look

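All 39 genes were screened for a mouse far from the others in the group of 4 untreated knockout mice, the only group large enough for such a test. On the FPKM scale Gbp2 stood out in knockout mouse 7, at 12.2 FPKM against 0, 0.184 and 1.52 in mice 3, 5 and 6, with a gap to the nearest mouse that was 0.876 of the group's range. Iigp1 stood out in the same mouse, at 5.20 FPKM against 0, 0.0186 and 0.768, with a gap of 0.852 of the range. Both values exceed Dixon's 95% critical value for 4 samples. On the log2 scale used for testing, 0 of the 39 genes did so. Chance flags about 5% of groups, and the 2 of 39 genes flagged on the FPKM scale are close to that share.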

How the results depend on the processing

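Between knockout and control mice, the number of the 39 genes that passed the test was 1 in the reported fit. It was 2 with 1 FPKM added before logs (Ifit3 and Oas3), 0 with 0.01 FPKM added, 0 without a filter on low values, 4 with median-ratio scaling and 4 with quantile normalization (Dhx58, Ifit3, Oas3 and Rtp4 in both). Leaving out the 2 libraries with few detected genes gave 0, as did leaving out the 2 libraries with Xist (an alternative chosen after seeing the data) and fitting only the 2 groups compared, and DESeq2 gave 11. Leaving out 1 mouse gave 0 to 1, the 1 being Psmb9 without knockout mouse 7. The median of the 39 genes stayed negative, at -2.01 to -1.07 over the 21 alternatives. Over all genes tested, 316 passed in the reported fit and 44 to 1830 in the alternatives. The median of all genes moved from 0.29 to 0.04 with median-ratio scaling and 0.07 with quantile normalization, and that of the 39 genes to -1.97 and -1.67. In the other comparisons no median of the 39 genes changed sign, with 0.04 to 0.88 for LPA-treated against untreated knockout mice and -1.51 to -0.79 for LPA-treated against control mice, and the number passed was 0 in every alternative except DESeq2 between LPA-treated and control mice, with 5. Changes in sign among the 13 genes described in full concerned Irgm1 between knockout and control mice, at 0.31 without the libraries with few genes. The others were differences with LPA, which in the reported fit reached 0.69 for Cxcl10 between LPA-treated and untreated knockout mice. Between LPA-treated and untreated knockout mice, without the libraries with few genes, Ifih1 was at -0.22, Irf7 at -0.14, Irf1 at -0.025 and Oasl1 at -0.028, and without the libraries with Xist these were at -0.22, -0.087, -0.033 and -0.23. Psmb8 was at -0.0092 with 1 FPKM added and -0.056 with median-ratio scaling. With edgeR, Irf1 was at -0.048, Psmb8 at -0.73 and Psmb9 at -0.29, and with DESeq2 at -0.033, -0.77 and -0.29. Leaving out 1 mouse gave -0.22 to 0.76 for Ifih1, -0.19 to 0.73 for Irf7, -0.025 to 0.88 for Irf1, -0.028 to 0.94 for Oasl1, -0.76 to 0.52 for Psmb8, -0.30 to 0.72 for Psmb9, -1.07 to 1.06 for Igtp, -1.42 to 0.34 for Zbp1 and -0.41 to 1.86 for Cxcl10. Between LPA-treated and control mice, Irf9 was at 0.019 without the libraries with few genes and Isg15 at 0.10 without those with Xist, and leaving out 1 mouse gave -0.27 to 0.019 for Irf9, -0.95 to 0.21 for Ifih1 and -1.30 to 0.10 for Isg15. The cause of these changes was not tested.

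For the mouse numbers shared by LPA-treated and control mice, deviations from group means correlated at 0.10 for mice 4 and -0.36 for mice 5. The labels do not say whether a shared number marks a pair, and so few correlations cannot decide it. Control and knockout mice share only the number 5 (correlation 0.30), as do the 2 knockout groups (-0.21). A block in those comparisons would rest on that number alone and is not reported. With the mouse number as a replicate block between LPA-treated and control mice, 1 residual degree of freedom was left. In that fit 0 of the 39 genes passed, their median was -0.79, Irf9 was at 0.10 and Isg15 at 0.30. Groups of 3 and 4 mice and reads of 0 for low genes in the shallow libraries limit what could be detected, and nothing in the labels gives litters or preparation days.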
